A study of Mus musculus with 6 samples.

Results

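The 10 genes described here encode AP-1 subunits and other immediate early factors. They are the Fos family (*Fos*, *Fosb*, *Fosl1* and *Fosl2*), the Jun family (*Jun*, *Junb* and *Jund*), *Egr1*, *Ier2* and *Myc*. They were taken by name after the Ensembl identifiers of the files had been matched to mouse gene symbols, and all 10 were among the 11234 genes listed. MC3T3-E1 cells are mouse preosteoblasts grown as a line, derived from calvaria and labelled as strain C57BL/6 at passage 4, and C3G (cyanidin-3-O-glucoside) is an anthocyanin, a plant pigment. All cells were first held in serum-free medium for 24 h. The C3G group (n = 3) was then kept for 24 h in complete medium with 100 μmol/L C3G, and the control group (n = 3) for the same time in complete medium without C3G, and is described as vehicle-treated. One RNA-seq library was made per sample, and expression was deposited as FPKM, a fragment number scaled for gene length and library size. The labels do not say whether the samples of a group were separate cultures, so the p values measure the spread between these samples, which may be technical.

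AP-1 is a transcription factor made of a pair of proteins, held together by leucine zippers. Jun proteins can pair with each other or with Fos proteins, whereas Fos proteins need a partner. Many of these genes are switched on within minutes when serum or a growth factor reaches resting cells, before any new protein is made, and their mRNAs are degraded quickly. In bone, Fos drives the formation of osteoclasts, and Fosl1 and Fosl2 act in the formation of matrix by osteoblasts. Egr1 is a zinc finger factor, Ier2 a small nuclear protein, and Myc a factor of growth and ribosome production that binds DNA with its partner Max.

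At 24 h these genes fell into tiers of level. *Jund* and *Jun* were the most abundant in mean, *Fos* and *Fosb* the least, and the other 6 lay between. No member differed between C3G-treated and control cells beyond the spread between replicates in the fit with group as the only term. Single libraries stood out instead. Control replicate 1 was the highest library in 6 of the 10 members, C3G replicate 3 the lowest in 6, and C3G replicate 2 the highest in 3, among them *Fos* and *Egr1*. Over all genes these shares were 28.6%, 11.2% and 12.7%, and control replicate 1 was also the lowest library in 50.4%.

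Facts of the libraries bear on all of these values. Control replicate 1 stood apart, with Pearson's r of 0.886 to 0.939 across genes against the other 5 libraries, which had 0.968 to 0.992 among themselves. Genes are not independent replicates, so these are descriptions. Its departures from control replicates 2 and 3 rose with transcript GC content (rho 0.748 by Spearman over genes), and those of C3G replicate 1 did so within its own group (rho 0.631). Samples with the same replicate number departed together from their group means, with r of 0.653, 0.580 and 0.440 for numbers 1, 2 and 3. Depth is unknown, since low FPKM values did not fall into steps of whole reads. The preosteoblast label was checked with 12 markers, of which 11 were listed. *Runx2* ranged from 5.46 to 9.07 FPKM and *Col1a1* from 923 to 4432 FPKM, while *Sp7* stayed between 0.237 and 0.857 FPKM and *Ibsp* was not listed. Of markers of other cells, 0 of 4 endothelial, 1 of 6 macrophage, 1 of 4 muscle, 2 of 6 epithelial and 2 of 6 cartilage or fat genes were listed. *Sox9* and *Col2a1*, known from cartilage, ranged from 48.2 to 106 and from 35.1 to 104 FPKM, and the epithelial genes *Krt14* from 71.6 to 149 FPKM and *Cdh1* from 0.524 to 1.37 FPKM. *Col1a1*, *Sox9*, *Col2a1* and *Krt14* were all highest in control replicate 1 and *Cdh1* in C3G replicate 1, and their part in the results below was not tested.

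The starts of 3 members are shown because *Fos* and *Jun* are the prototypes of the families that form AP-1 and *Fosb* is the closest listed relative of *Fos* in level. The sequences are the 250 bases before the RefSeq start on GRCm38.p6, read 5′ to 3′ on the strand of the gene. *Fos* is at chr12:85473640-85473889 on the plus strand, *Fosb* at chr7:19310046-19310295 on the minus strand and *Jun* at chr4:95052223-95052472 on the minus strand. Capitals mark TATAAA and TGACGT in *Fos* and TGACATCA in *Jun*.
Fos: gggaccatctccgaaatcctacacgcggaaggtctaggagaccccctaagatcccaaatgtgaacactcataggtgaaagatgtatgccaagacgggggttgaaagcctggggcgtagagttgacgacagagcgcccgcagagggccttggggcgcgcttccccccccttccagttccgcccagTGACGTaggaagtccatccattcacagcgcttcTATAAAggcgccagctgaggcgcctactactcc
Fosb: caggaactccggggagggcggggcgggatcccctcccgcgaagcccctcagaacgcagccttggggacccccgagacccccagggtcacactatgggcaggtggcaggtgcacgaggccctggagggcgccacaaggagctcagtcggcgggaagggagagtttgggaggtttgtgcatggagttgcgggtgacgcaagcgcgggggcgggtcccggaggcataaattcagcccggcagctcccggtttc
Jun: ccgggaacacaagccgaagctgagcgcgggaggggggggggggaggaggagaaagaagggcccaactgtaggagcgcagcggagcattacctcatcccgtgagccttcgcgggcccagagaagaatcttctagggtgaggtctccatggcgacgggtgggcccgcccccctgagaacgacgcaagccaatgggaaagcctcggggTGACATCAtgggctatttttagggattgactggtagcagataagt
RefSeq windows of 300 bases, from 250 before to 50 after the start, were held for 6 members: these 3, *Fosl2*, *Junb* and *Jund*. Both strands were searched. The TATA box TATAAA was found in *Fos*, 33 bases before the start, and at the RefSeq start itself in *Junb*, which is 30 bases upstream of the GENCODE start of that gene, and 13.6% of 32851 promoters hold it. The SRF site (CArG box), the CRE core TGACGTCA, the AP-1 site TGACTCA and the E-box CACGTG were found in none of the 6 windows, against 1.63%, 1.79%, 5.20% and 7.15% of all promoters. Sites more than 250 bases upstream of the start were not searched, and *Egr1*, *Fosl1*, *Ier2* and *Myc* had no window. The search thus does not show that these genes lack such sites. For *Jund* and *Fosl2* the RefSeq start lies 1210 and 671 bases from the GENCODE start, so their windows are not around the gene starts given below. After that search, TGACGT (part of the CRE core, in 7.51% of promoters) and TGACNTCA (which includes the CRE core, in 8.83%) were added. The first lies 66 bases before the start of *Fos* and the second 45 bases before that of *Jun*. These matches are descriptions of letters and not of binding.

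The members also differ in gene structure and in the elements that mark short-lived mRNAs. *Jun*, *Jund* and *Ier2* are annotated with 1 exon each, while *Fos*, *Fosb*, *Fosl1* and *Fosl2* have several. AUUUA, the core of AU-rich decay elements, was counted in the 3′ UTR of the longest coding transcript. Its density was above the median of 11141 listed genes (1.32 per kilobase) in 8 of the 10 members. *Fos* had 4 copies (4.89 per kilobase), *Myc* 4.49, *Junb* 4.10 and *Jun* 3.24 per kilobase, whereas *Ier2* had 0 and *Fosb* 0.466. The longer element UUAUUUAUU was found in *Fos* and *Fosl2*, 2 of 10 members, and in 891 of the 11141 genes.

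FPKM is scaled for length, so levels can be compared between genes. The scaling does not correct for GC content or for exons shared with a gene on the opposite strand, so the order is approximate. Over all 6 libraries the order of mean FPKM was *Jund* (46.6), *Jun* (43.2), *Ier2* (19.5), *Fosl1* (18.3), *Junb* (18.0), *Myc* (15.2), *Fosl2* (7.95), *Egr1* (3.50), *Fos* (1.38) and *Fosb* (0.922). *Jund* and *Jun* lay above 91.7% and 91.0% of the listed genes, and *Fos* and *Fosb* above 10.6% and 6.00%. The steps from *Jun* to *Ier2*, from *Myc* to *Fosl2*, from *Fosl2* to *Egr1* and from *Egr1* to *Fos* held in 6 of 6 libraries. Other neighbours could not be ordered. *Jund* was above *Jun* in 2 of 6 libraries, *Ier2* above *Fosl1* in 2 of 6, *Fosl1* above *Junb* in 3 of 6, *Junb* above *Myc* in 3 of 6 and *Fos* above *Fosb* in 3 of 6.

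**Figure D1:**
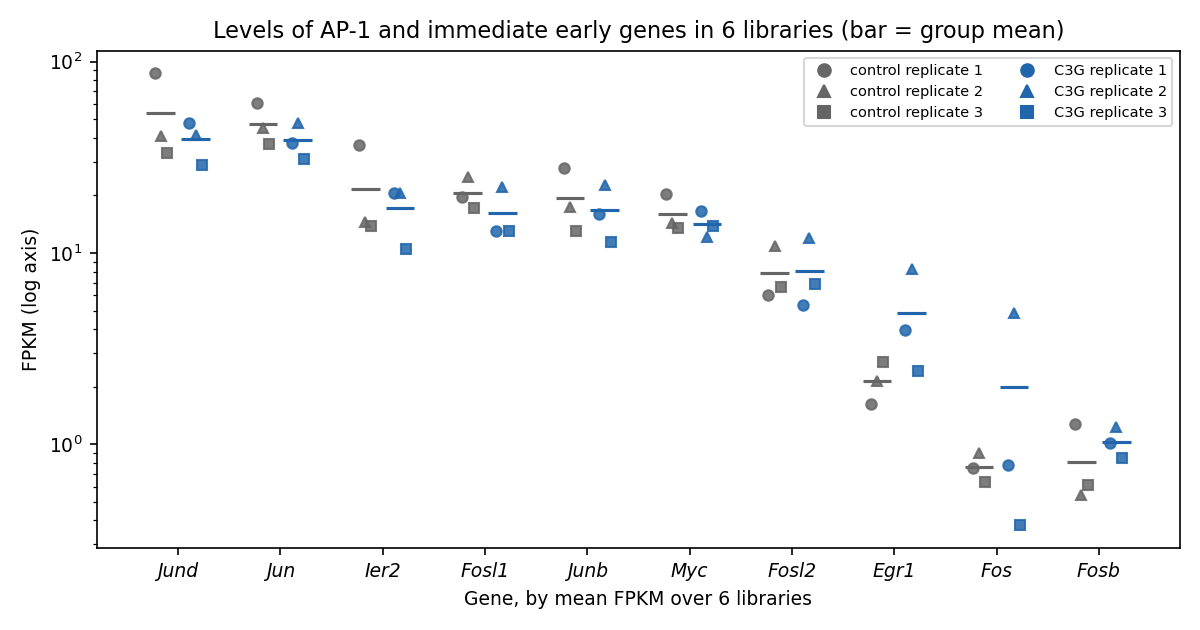
FPKM of the 10 genes on a log axis, in order of their mean over 6 libraries, with control libraries in grey, C3G libraries in blue, a symbol for each replicate number and a bar for each group mean. *Jund* and *Jun* lie highest and *Fos* and *Fosb* lowest, and the C3G replicate 2 triangle stands out in *Fos* (4.84 FPKM) and *Egr1* (8.20 FPKM).

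Groups were compared with limma on log2(FPKM + 1) over all 11234 genes, and calling a gene took a two-sided p under 0.05, unadjusted, and a fold change of at least 1.2. On this scale the change of a gene with low FPKM is understated. With limma 0 of the 10 members were called, 0 had an unadjusted p under 0.05 (0.659% of all genes did), and the smallest adjusted p of a member (Benjamini-Hochberg over all genes) was 0.992. Among all genes 0.65% were called. The groups overlapped in 10 of 10 members, whereas 4.02% of all genes had no overlap. The median log2 difference was -0.17 over the members and 0.06 over all genes, with 4 members higher and 6 lower in mean. For single genes an exact permutation test (two-sided) is given as well, and with 3 against 3 its p cannot be below 0.1. In bulk RNA, fewer cells that express a gene and less RNA per cell cannot be told apart.

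*Fos* (chromosome 12 of GRCm38, 85473890 to 85477273), the prototype AP-1 subunit, was close to the lower end of the listed genes. It had 0.751, 0.900 and 0.639 FPKM across controls and 0.776, 4.84 and 0.377 FPKM across C3G samples, listed here and below as replicates 1, 2 and 3. The C3G group thus held both the highest and the lowest of the 6 values, 12.8-fold apart. The group means were 0.763 ± 0.131 FPKM (SD, n = 3) in control and 2.00 ± 2.47 FPKM (SD, n = 3) in C3G cells. The difference was 0.46 on the log2 scale (standard error 0.51, 95% interval -0.74 to 1.67, limma p = 0.392, exact permutation p = 0.8). Without C3G replicate 2 it was -0.17, with the opposite sign. The intervals for *Fos* allow a change in either direction.

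*Fosb* (chromosome 7, 19302696 to 19310051), which can replace Fos in the pair, was also low. Its FPKM was 1.28, 0.546 and 0.614 across controls and 1.01, 1.24 and 0.843 across C3G samples. Control replicate 1 was the highest of all, and every C3G library lay above the other 2 controls. The means were 0.813 ± 0.404 (SD, n = 3) and 1.03 ± 0.197 FPKM (SD, n = 3), a log2 difference of 0.18 (standard error 0.18, 95% interval -0.26 to 0.62, limma p = 0.358, exact permutation p = 0.4). Without control replicate 1, *Fosb* passed both thresholds, at 0.36 (limma, adjusted p = 0.992), where 1.28% of all genes were called. With replicates 2 and 3 only it passed them too, where 1.7% of all genes were called. The difference was 0.079 without control replicate 2, and 0.11 without control replicate 3 or without C3G replicate 2. *Fosb* was not called in these fits.

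*Fosl1* (chromosome 19, 5447547 to 5455946) encodes Fra-1. Its FPKM was 19.6, 24.9 and 17.2 across controls and 13.1, 22.2 and 13.0 across C3G samples. Within each replicate number the C3G library was the lower one, and replicate 2 was the highest of each group. The difference was -0.36 on the log2 scale (standard error 0.26, 95% interval -0.97 to 0.25, limma p = 0.200, exact permutation p = 0.3), from 20.6 ± 3.94 (SD, n = 3) to 16.1 ± 5.30 FPKM (SD, n = 3). With the replicate number as a block the same difference had a standard error of 0.14 and passed both thresholds (limma, adjusted p = 0.794), where 1.5% of all genes were called. With the GC correction added to the block it was -0.25, under the fold threshold, and was not called. Without C3G replicate 2 it was -0.60 and also passed (limma, adjusted p = 0.9997), where 0.356% of all genes were called. It was -0.22 without control replicate 2, and -0.24 without C3G replicate 1 or without C3G replicate 3. *Fosl1* was not called in these fits. The exons of *Fosl1* overlap those of *Ccdc85b* on the opposite strand, and the use of strand in counting is not stated.

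*Fosl2* (chromosome 5, 32135801 to 32157842) encodes Fra-2. It had 6.01, 10.9 and 6.66 FPKM across controls and 5.35, 11.9 and 6.88 FPKM across C3G samples. As in *Fosl1*, replicate 2 stood highest in both groups, and the groups were nearly equal at 7.85 ± 2.65 (SD, n = 3) and 8.05 ± 3.44 FPKM (SD, n = 3). The log2 difference was 0.01 (95% interval -0.77 to 0.78, limma p = 0.986, exact permutation p = 1), and its sign changed under 5 alternatives.

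*Jun* (chromosome 4, 95049034 to 95052222) encodes the prototype Jun protein. Its FPKM was 60.7, 44.8 and 36.9 across controls and 37.6, 48.0 and 31.0 across C3G samples. The highest value was in a control and the lowest in a C3G library, with the rest interleaved. The means of 47.5 ± 12.1 (SD, n = 3) and 38.8 ± 8.55 FPKM (SD, n = 3) gave a log2 difference of -0.28 (standard error 0.25, 95% interval -0.86 to 0.31, limma p = 0.301, exact permutation p = 0.5). Without control replicate 1 the difference was -0.088, and with replicates 2 and 3 only it was -0.075. *Jun* shares exon positions with the antisense gene *Junos*.

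*Junb* (chromosome 8, 84974484 to 84978718), often a weaker activator than Jun, had 27.7, 17.3 and 13.0 FPKM across controls and 15.9, 22.8 and 11.4 FPKM across C3G samples. The log2 difference was -0.19 (standard error 0.34, 95% interval -0.99 to 0.62, limma p = 0.598, exact permutation p = 0.6). Control replicate 1 and C3G replicate 2 were the high libraries, and without either the groups changed order or moved further apart. The difference was 0.09 without control replicate 1 and -0.42 without C3G replicate 2. Exons of *Junb* overlap those of *Prdx2* on the opposite strand.

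*Jund* (chromosome 8, 70698949 to 70700616) is the member kept on in resting cells. It had 86.9, 41.0 and 33.4 FPKM across controls and 47.7, 41.5 and 29.0 FPKM across C3G samples, so that control replicate 1 was 2.11 times the median of the 6 libraries. The log2 difference was -0.34 (standard error 0.38, 95% interval -1.24 to 0.56, limma p = 0.394, exact permutation p = 0.7). It was 0.06 without control replicate 1, and 0.04 with each library corrected for GC content. *Jund* overlaps *Gm11175* on the opposite strand.

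*Egr1* (chromosome 18, 34859823 to 34864984) showed the largest log2 difference of the 10 members in the fit with group only. Its FPKM was 1.62, 2.13 and 2.69 across controls and 3.94, 8.20 and 2.41 across C3G samples. C3G replicates 1 and 2 lay above every control and C3G replicate 3 between the controls. The means were 2.15 ± 0.532 (SD, n = 3) and 4.85 ± 3.00 FPKM (SD, n = 3), a log2 difference of 0.78 with a standard error of 0.36 (95% interval -0.08 to 1.65, exact permutation p = 0.2, limma p = 0.0692). It stayed positive in 16 of 16 alternatives, from 0.40 without C3G replicate 2 to 1.11 without C3G replicate 3. It passed both thresholds in 2 of them: without C3G replicate 3 (0.383% of all genes called) and with the GC correction and the replicate block together (limma, adjusted p = 0.785, 2.19% of all genes called). Without C3G replicate 2, *Fosl1* (-0.60), *Jun* (-0.44) and *Junb* (-0.42) had differences larger in size than that of *Egr1*.

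*Ier2* (chromosome 8, 84661331 to 84662852) had 36.8, 14.5 and 13.9 FPKM across controls and 20.6, 20.5 and 10.5 FPKM across C3G samples. Control replicate 1 was again highest, and without it the difference turned from -0.24 (standard error 0.43, 95% interval -1.26 to 0.78, limma p = 0.598, exact permutation p = 0.8) to 0.20. *Myc* (chromosome 15, 61985391 to 61990374) was the steadiest member, with 20.3, 14.4 and 13.5 FPKM across controls and 16.6, 12.2 and 13.9 FPKM across C3G samples. Its highest value was 1.66 times its lowest. The log2 difference was -0.15 (standard error 0.21, 95% interval -0.65 to 0.34, limma p = 0.487, exact permutation p = 0.6).

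**Figure D2:**
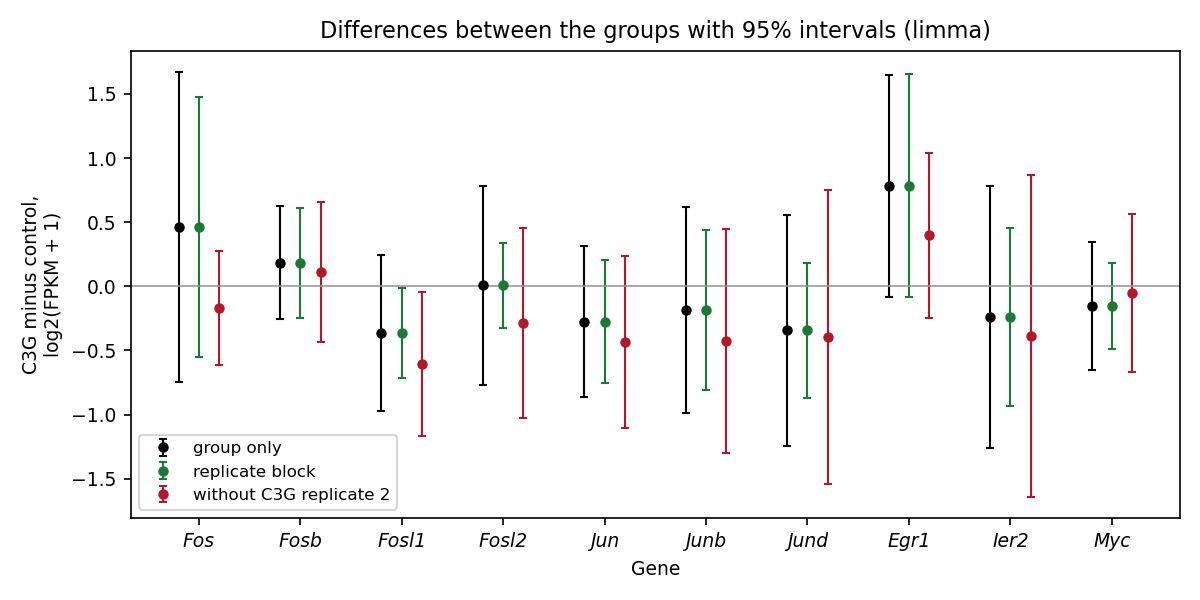
Difference C3G minus control in log2(FPKM + 1) for each gene with 95% intervals from limma, for all libraries with group as the only term (black), with the replicate number as a block (green) and without C3G replicate 2 (red). With group only, each interval includes 0; the interval of *Fosl1* lies below 0 in the other fits, and *Fos* changes from 0.46 to -0.17 without C3G replicate 2.

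The same-numbered samples give the differences by pair. In number 2, C3G minus control was 1.62 for *Fos*, 1.56 for *Egr1*, 0.53 for *Fosb*, 0.47 for *Ier2* and 0.38 for *Junb* on the log2 scale. In number 3 the same genes gave -0.25, -0.11, 0.19, -0.38 and -0.17. In number 1 they gave 0.02, 0.91, -0.18, -0.81 and -0.76. *Fosl1* was the one member with the same sign in all pairs, at -0.55, -0.16 and -0.38 in numbers 1, 2 and 3. In the same order *Jun* gave -0.68, 0.10 and -0.25, and *Jund* -0.85, 0.02 and -0.20. *Fosl2* gave -0.14, 0.12 and 0.04, and *Myc* -0.27, -0.23 and 0.04.

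Since GC content moved with the libraries, each member's departure from the other 2 libraries of its group was set beside the genes within 2 percentage points of its GC content. In control replicate 1, *Jund* (67.1% GC) departed by 1.21 on the log2 scale, against a median of 1.25 for 44 genes of like GC, and *Junb* (62.6% GC) by 0.84 against 0.80 for 322 genes. *Ier2* departed by 1.31, above 91.7% of its 639 genes of like GC. *Fosl2*, *Egr1* and *Fosl1* went the other way, at -0.44, -0.37 and -0.08, where genes of like GC had medians of 0.11, 0.46 and 0.55. The part of GC content in these differences was not tested.

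C3G replicate 2 showed another picture. *Fos* was 1.90 higher on the log2 scale than the mean of C3G replicates 1 and 3, *Egr1* 1.17, *Fosl2* 0.87, *Fosl1* 0.73, *Junb* 0.71, *Jun* 0.48 and *Ier2* 0.45 higher. Genes of like GC had medians from -0.18 to -0.06 in that library. In these 7 members the departure exceeded that of over 95% of the genes of like GC, and in *Fos* that of 99.9%. The other members were *Fosb* (0.21, above 93.0%), *Jund* (0.15, above 81.8%) and *Myc* (-0.30, above 12.6%). Since a departure is taken from the other libraries of the group, these high values lower those of C3G replicates 1 and 3, in which 4 and 7 of the 10 members lay under the 10th percentile. The reverse also holds, since C3G replicate 3 was the lowest of the 6 libraries in 6 of the 10 members. Its low values raise the departures of C3G replicate 2. For *Ier2* the C3G libraries had 20.6, 20.5 and 10.5 FPKM, so C3G replicate 2 was not the highest of its group. In control replicate 2, *Fosl1* and *Fosl2* were above the 97.8th and 98.7th percentiles, so their high values in number 2 were seen in both groups.

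**Figure D3:**
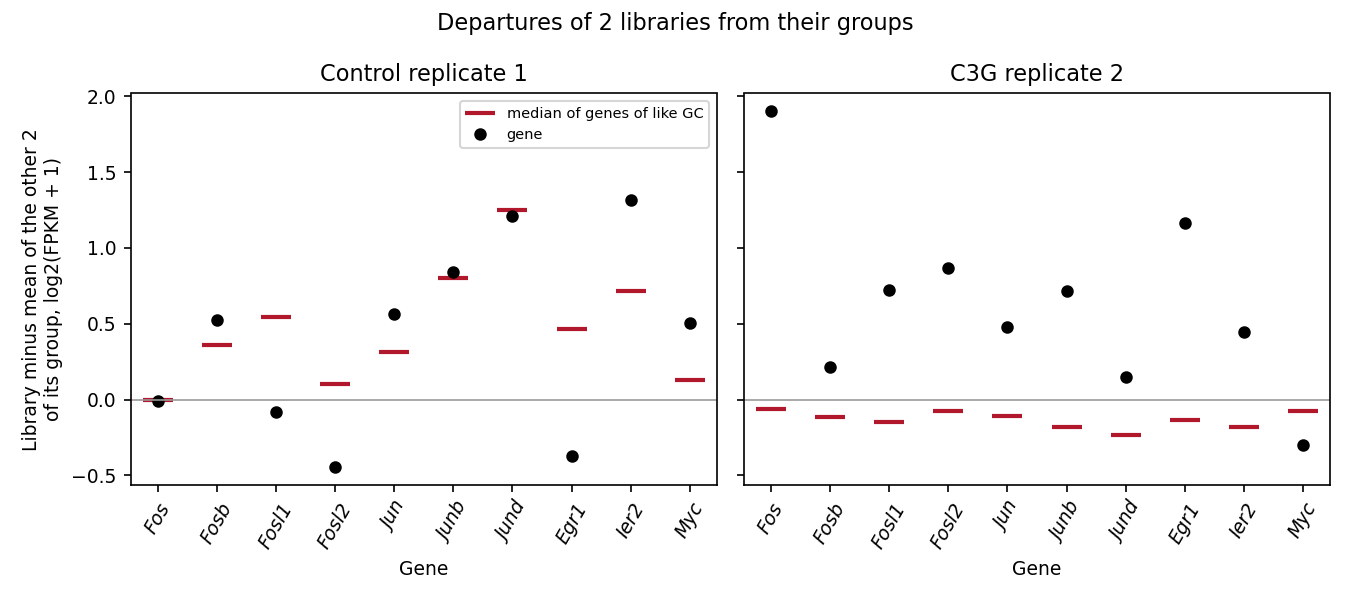
Departure of control replicate 1 (left) and C3G replicate 2 (right) from the mean of the other 2 libraries of the group in log2(FPKM + 1), with black points for the 10 genes and red bars for the median of genes within 2 percentage points of GC content. In control replicate 1 *Jund* (1.21) and *Junb* (0.84) lie near their bars, and in C3G replicate 2 all members but *Myc* lie above theirs.

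Some members had alike profiles over the 6 libraries. Pearson's r of log2(FPKM + 1) was 0.86 to 0.97 among *Jun*, *Junb*, *Jund* and *Ier2*, 0.86 between *Fos* and *Egr1*, and 0.77 between *Fosl1* and *Fosl2*. With each library corrected for GC content these were 0.63 to 0.88, 0.81 and 0.94. Pairs outside these sets could be as high, both before the correction (*Jund* with *Myc*, 0.84, and -0.16 after it) and after it. With the correction *Junb* had r of 0.92 with *Fos*, 0.81 with *Fosl2* and 0.76 with *Fosl1*, and *Fos* 0.75 with *Jund*, where the uncorrected values were 0.52, 0.22, 0.60 and 0.05. *Myc* ran against *Fos* and *Egr1*, with r of -0.48 and -0.61. All of these values share the same 6 libraries and their GC patterns and are descriptions.

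Other genes were compared with a composite of members, which were not all alike (r of *Egr1* was -0.05 with *Jun* and -0.01 with *Ier2*). The mean log2(FPKM + 1) of *Fos*, *Fosb*, *Egr1*, *Ier2*, *Jun* and *Junb* was 3.24, 2.81 and 2.71 across controls and 2.99, 3.59 and 2.55 across C3G samples. Among 10444 genes with a mean FPKM of at least 1, those with the highest r with this mean over 6 libraries included *Zc3h11a* (0.952), *Kcnk5* (0.951), *Zxdc* (0.943) and *Ubap1* (0.927). The highest r of so many genes over 6 libraries are high by selection, so these values are descriptions. *Kcnk5* ranged only from 3.24 to 3.99 FPKM. *Zc3h11a*, which encodes an RNA-binding zinc finger protein, had 12.6, 4.93 and 4.70 FPKM across controls and 10.1, 16.2 and 4.52 FPKM across C3G samples.

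The make-up of AP-1 mRNA within a library does not depend on the scaling between libraries. A GC pattern of a library does not cancel in it, since the genes differ in GC content (*Jund* 67.1%, *Fosl2* 53.1%). The part of GC content in the shares was not tested. Jun family genes made up 86.4%, 73.5% and 76.8% of the summed FPKM of the 7 Fos and Jun genes across controls and 83.3%, 73.6% and 77.2% across C3G samples. The number 1 libraries had the largest Jun share in both groups, and the same-numbered pairs lay within a few percentage points. *Jun* itself kept to 29.9% to 34.0%. *Jund* ranged from 27.2% to 42.8%, *Fosl1* from 9.64% to 17.7% and *Fosl2* from 2.96% to 7.82%. *Fos* made up 0.370% to 0.641% in 5 libraries and 3.18% in C3G replicate 2. *Fosb* made up 0.630%, 0.389% and 0.566% across controls and 0.836%, 0.811% and 0.912% across C3G samples, while the FPKM of *Fosb* overlapped between the groups. A share also moves with the sum, which was 151 ± 48.0 FPKM (SD, n = 3) in control and 122 ± 30.0 FPKM (SD, n = 3) in C3G cells.

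**Figure D4:**
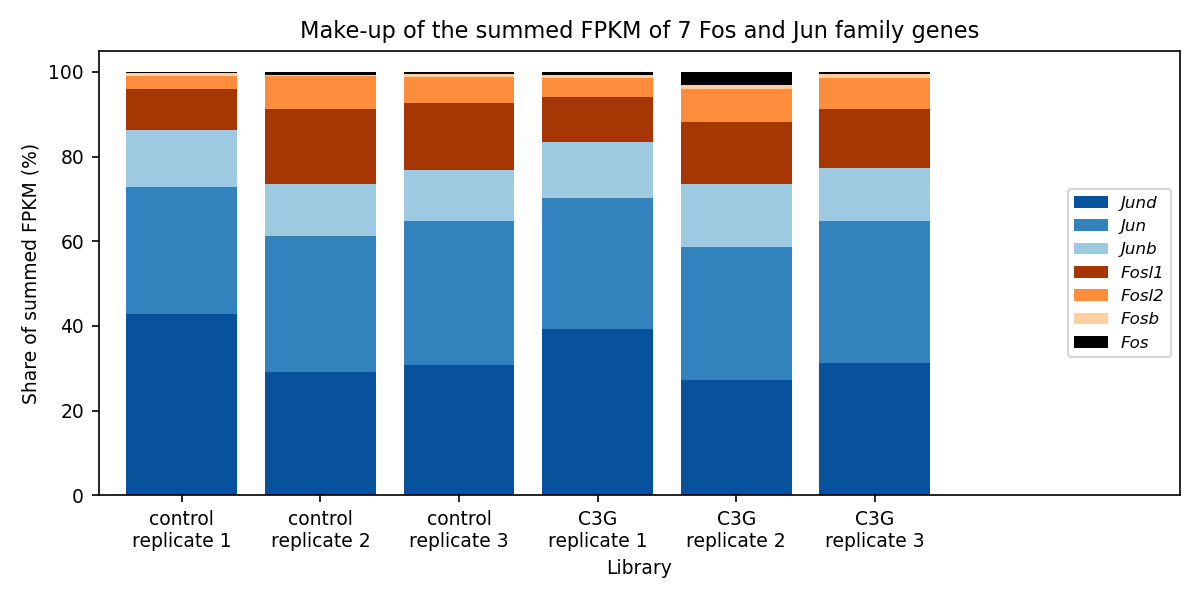
Share of each gene in the summed FPKM of the 7 Fos and Jun family genes, in percent, for each of the 6 libraries, with Jun family genes in blue and Fos family genes in orange and black. The Jun family makes up 73.5% to 86.4% of the sum, most in the number 1 libraries, and *Fos* is visible in C3G replicate 2 (3.18%).

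The wider pathway was followed with 8 lists, which hold 134 genes in all, 119 of them listed in the files. With limma 0 of the 119 were called and 0 had an unadjusted p under 0.05, beside 0.65% of all genes called, and the median log2 difference was 0.07. The groups did not overlap in 3 of them (2.52%, against 4.02% of all genes). These were *Mafg*, *Nolc1* and *Cad*, all lower with C3G, a pattern that 1.48% of all genes had; *Mafg* and *Cad* were named after their values were seen.

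Of 13 partners that pair with Fos or Jun proteins, 8 were listed, and *Atf3*, *Batf*, *Batf2* and *Batf3* were among those that were not. *Atf4*, a factor of the stress response, was the most abundant, at 108 to 188 FPKM, and *Jdp2*, a repressor of AP-1, had 35.0 to 69.4 FPKM. *Mafg*, a small Maf protein, had 14.04, 15.6 and 13.9 FPKM across controls and 13.7, 13.5 and 12.5 FPKM across C3G samples, a log2 difference of -0.12 (limma p = 0.427, exact permutation p = 0.1). *Maff* had a log2 difference of -0.37 (limma p = 0.227, exact permutation p = 0.3).

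Of 35 other immediate early genes 31 were listed, and *Egr3*, *Egr4*, *Nr4a3* and *Dusp2* were not. In mean, 23 were higher and 8 lower with C3G, where 6960 of all 11234 genes were higher, and the median log2 difference was 0.12. C3G replicate 2 was the highest library in 14 of the 31 (45.2%), whereas it was the highest in 12.7% of all genes and in 3 of the 10 members. *Zfp36*, whose protein speeds the decay of mRNAs with AU-rich elements, had 2.56, 3.33 and 3.09 FPKM across controls and 5.07, 6.14 and 2.82 FPKM across C3G samples. Its library pattern was that of *Egr1*, with C3G replicates 1 and 2 above every control (log2 difference 0.46, standard error 0.26, limma p = 0.115, exact permutation p = 0.3). *Klf4* and *Ccn1* were the most abundant, at 50.6 to 84.0 and 61.1 to 132 FPKM, both highest in C3G replicate 2. *Dusp1*, a phosphatase of MAP kinases named after its values were seen, had 3.26, 7.15 and 3.91 FPKM across controls and 4.77, 10.7 and 3.46 FPKM across C3G samples, with replicate 2 highest in each group.

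Upstream factors were all listed, 21 of 21. *Srf*, the serum response factor that acts on *Fos* and *Egr1*, named after its values were seen, had 40.0, 19.7 and 20.0 FPKM across controls and 29.9, 21.3 and 20.1 FPKM across C3G samples. Its high values were in the number 1 libraries, while *Fos* and *Egr1* were highest in C3G replicate 2. These are mRNA levels and not the activity of Srf, and a link between them was not tested. *Mrtfb*, a cofactor of Srf, had 2.54, 5.65 and 3.27 FPKM across controls and 5.56, 5.80 and 6.16 FPKM across C3G samples. Its log2 difference was 0.56 (limma p = 0.0632, exact permutation p = 0.2), and it passed both thresholds with the replicate block (limma, adjusted p = 0.794). Without control replicate 1, the lowest library of *Mrtfb* at 2.54 FPKM, the difference was smaller and was not called. *Mapk3*, which encodes the kinase ERK1, had a log2 difference of -0.01 (limma p = 0.973, exact permutation p = 1).

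Of 12 genes of restraint and decay, all listed, *Nab2*, the corepressor that binds Egr1 and is itself an Egr1 target, had 105, 55.6 and 56.9 FPKM across controls and 64.2, 45.6 and 48.4 FPKM across C3G samples. The C3G library was the lower one in every same-numbered pair. The log2 difference was -0.40 (limma p = 0.205, exact permutation p = 0.3), and with the replicate block it passed both thresholds (limma, adjusted p = 0.794), but not with the GC correction added. Over the alternatives it ranged from -0.56 to -0.11. *Egr1* itself was higher in mean, and C3G replicate 2, highest in *Egr1*, was lowest in *Nab2*. A link between the 2 genes was not tested. Of 13 Egr1 targets 11 were listed, with a median log2 difference of 0.00.

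In the Myc network 11 of 13 genes were listed, and *Mycn* and *Mycl* were not. *Mxd4*, a repressor that competes with Myc for Max, had 9.32 to 18.0 FPKM. The median log2 difference was 0.07 over the network and 0.01 over the 14 Myc targets, all listed. *Nolc1*, a nucleolar protein, had 37.7, 37.0 and 32.9 FPKM across controls and 30.6, 32.2 and 31.3 FPKM across C3G samples, without overlap (log2 difference -0.18, limma p = 0.235, exact permutation p = 0.1). *Cad*, which encodes the enzyme that starts pyrimidine synthesis, had 11.9, 9.15 and 8.92 FPKM, then 8.56, 8.08 and 8.69 FPKM (-0.21, limma p = 0.255, exact permutation p = 0.1).

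Of 18 AP-1 targets 16 were listed, and *Mmp3* and *Il6* were not. The median log2 difference was 0.04, with 10 higher and 6 lower in mean, close to the split over all genes. *Timp1*, an inhibitor of matrix proteases, had 114, 121 and 107 FPKM across controls and 62.4, 114 and 86.6 FPKM across C3G samples (log2 difference -0.41, limma p = 0.128, exact permutation p = 0.3). As with *Fosl1*, C3G replicates 1 and 3 lay below the controls and C3G replicate 2 among them. Without C3G replicate 2 the difference was -0.62 and passed both thresholds (limma, adjusted p = 0.9997). *Vim* and *Spp1*, the most abundant of the list, had log2 differences of -0.08 and 0.12 (limma p = 0.636 and 0.638, exact permutation p = 0.4 and 1).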

How the data were processed

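Total RNA of 6 MC3T3-E1 samples was sequenced from stranded libraries. The authors calculated FPKM per gene with Ballgown, and 1 deposited FPKM value per gene and library is the starting point here. Per the submitters' processing notes, cutadapt, HISAT2 2.1.0, StringTie and STAR 2.5.2b were used, with no role given. The same notes list the human build hg19, whereas the identifiers are mouse Ensembl genes, of which 9812 carry GENCODE M21 version numbers. Positions, exon overlaps, GC content and UTRs are those of GENCODE M21 on GRCm38, promoters those of RefSeq on GRCm38.p6. Every gene has a mean of at least 0.500 FPKM in 1 group, so genes low in both are not seen. The depth of the libraries is unknown.

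Identifiers were matched to symbols for 11211 genes. The log2(FPKM + 1) values of all 6 samples went into a model of group alone in limma 3.58.1 (R 4.3.3), using eBayes with trend. The fit was also run on simulated data with independent normal spread per gene. These lacked the GC and replicate number patterns of the libraries, so that run does not vouch for the calls here. Python 3.11.15, with scipy 1.17.1, pandas 2.3.3 and numpy 2.4.6, gave the other values. Replicate numbers come from the sample titles, and since same-numbered samples departed together (r 0.440 to 0.653, against -0.640 to 0.307 for different numbers), a fit with the replicate number as a block is given where it changes a call. In all, 16 alternatives were fitted. All 10 members are named; from the lists, the genes called, the 2 of highest mean FPKM and the 2 of smallest p could be named, with further genes marked as named after their values were seen; a few genes that the rule would name are not reported here. The members and lists were chosen with earlier results of these data known.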

Additional observations from a re-analysis of the deposited data

How the results depend on the processing

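Over 16 alternatives, 135 of 159 log2 differences of members kept their sign and their side of the thresholds, 6 passed the thresholds and 18 changed sign; *Fosb* was left out of the fit at a mean FPKM of at least 1. The cause was not tested. The count of genes called over all genes was 73 (45 higher, 28 lower), 48 with an ordinary linear model, 169 with the replicate block, 135 with the GC correction (67 higher, 68 lower), 246 with the GC correction and replicate block, 191 with replicates 2 and 3 only and 40 to 144 with 1 library left out; with quantile normalization 30 were higher and 30 lower. In no fit did a gene pass the adjustment. The count of members called was 1 with the replicate block (*Fosl1*), 1 with the GC correction and replicate block (*Egr1*), 1 with replicates 2 and 3 only (*Fosb*) and 0 to 1 with 1 library left out. Of the lists, upstream factors had 1 call with the replicate block, 1 with the GC correction and 1 with both (*Mrtfb*), and 0 to 1 with 1 library left out. Restraint and decay genes had 1 with the replicate block (*Nab2*) and 0 to 1 with 1 library left out, Egr1 targets 1 with the replicate block (*Nab2*), AP-1 targets 0 to 1 with 1 library left out, and other immediate early genes 0 to 2 (*Nr4a1* and *Zfp36*, without C3G replicate 3). The replicate block changed no other call of a member or list.

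With 1 library left out, the log2 difference ranged from -0.17 to 0.87 for *Fos*, from -0.28 to 0.24 for *Fosl2*, from -0.44 to -0.088 for *Jun*, from -0.42 to 0.094 for *Junb*, from -0.62 to 0.059 for *Jund*, from -0.47 to 0.20 for *Ier2* and from -0.26 to 0.015 for *Myc*. It ranged from 0.079 to 0.36 for *Fosb* and from -0.60 to -0.22 for *Fosl1*. *Fosl2* was -0.066 with quantile normalization and -0.059 with median centring. After GC correction *Junb* was 0.040 and *Jund* 0.042, and adding the replicate block left both values as they were. *Junb* was 0.10 and *Ier2* 0.048 with replicates 2 and 3 only.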

Other observations

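Some genes of the lists had the profile of *Fosl1* and *Fosl2* within the control group, with control replicate 2 above control replicates 1 and 3; they were chosen after their values were seen. *Tnfrsf12a*, a receptor of the TNF family, had 39.2, 114 and 76.1 FPKM across controls and 60.3, 130 and 64.1 FPKM across C3G samples. *Ptgs2*, the inducible cyclooxygenase, had 0.350, 5.58 and 2.86 FPKM and then 1.74, 8.09 and 2.39 FPKM. In both, replicate 2 was the highest library of each group.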
